A study of Mus musculus with 19 samples.

Results

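The miR-181 family was taken as every mature miRNA of its 6 mouse stems, which gave 10 of the 1079 mouse miRNAs on the array. They are the 5p arms mmu-miR-181a-5p, mmu-miR-181b-5p, mmu-miR-181c-5p and mmu-miR-181d-5p, written below without the species prefix, and 6 arms from the 3p side of the same stems. The family was chosen because miR-181c-5p and miR-181d-5p lay lower in the muscles of high-active mice, so the comparison of the strains is a description of the values that chose them, and the comparison of the tissues is what was tested. Inbred male mice of the C57L/J strain, called high-active for their voluntary running, were set against inbred males of the low-active C3H/HeJ strain. All animals were 9 weeks old, lived alone beside a running wheel that could not turn, and received no treatment. The 19 arrays came from 8 mice, 4 of each strain. High-active mice gave 4 nucleus accumbens, 4 soleus and 2 extensor digitorum longus (EDL) arrays, and low-active mice gave 3, 2 and 4. Each strain is 1 inbred line, so activity cannot be told apart from any other difference between the lines.

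A miRNA is a short RNA that pairs with target mRNAs, mainly through its seed, bases 2 to 8, and lowers their translation or stability. One stem yields an arm from its 5p side and one from its 3p side, and usually one of them accumulates. miR-181a is best known from mouse thymocytes, where it raises the sensitivity of the T cell receptor, and the family is also abundant in brain. In mouse myoblasts miR-181 lowers the homeobox protein Hox-A11 during differentiation. The nucleus accumbens is a reward centre of the brain, the soleus is a mainly slow, oxidative muscle and the EDL a mainly fast one.

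The 5p arms are shown because all 4 share the seed ACAUUCA, in capitals, and differ only behind it. Sequences and positions are those of RefSeq for GRCm38.p6, and all 10 mature miRNAs were matched by name.
miR-181a-5p: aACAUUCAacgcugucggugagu
miR-181b-5p: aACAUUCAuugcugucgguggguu
miR-181c-5p: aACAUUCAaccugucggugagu
miR-181d-5p: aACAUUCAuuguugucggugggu
miR-181c-5p differs from miR-181a-5p by 1 lost base, an edit distance of 1. miR-181d-5p differs from miR-181b-5p by the substitution C12U, counted from the 5′ end, and by the absence of the last base, an edit distance of 2. Between the 2 clusters' remaining pairs the distance is 4 for miR-181a-5p and miR-181d-5p and 5 for miR-181b-5p and miR-181c-5p. The probe sequences were not used here, so cross-hybridisation between these near-identical arms was not tested.

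The stems of miR-181c and miR-181d form 1 cluster, at chr8:84178873-84178961 and chr8:84178716-84178787 on the minus strand, with 85 bases between them, and no other annotated gene overlaps either. miR-181a and miR-181b come from 2 clusters each. Mir181a-1 and Mir181b-1 lie at chr1:137966455-137966541 and chr1:137966639-137966718 on the plus strand, 97 bases apart and also outside other annotated genes. Mir181a-2 and Mir181b-2 lie at chr2:38852735-38852810 and chr2:38853830-38853918 on the plus strand, 1019 bases apart, inside the span of Nr6a1, which encodes an orphan nuclear receptor, and of the non-coding gene Nr6a1os. The chromosome 1 and chromosome 2 stems give the same 5p arm, so the arrays read both together, and only the 3p arms differ by stem.

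All 4 5p arms were well above background on 19 of 19 arrays. Of the 3p arms, miR-181a-1-3p was well above background on 7 of 7 nucleus accumbens arrays and on no muscle array, and miR-181a-2-3p on 4 of 6 EDL arrays and on no other. miR-181b-1-3p, miR-181b-2-3p, miR-181c-3p and miR-181d-3p were not well above background on any of the 19 arrays. No level is given for these 4. Every 5p arm had 2 probes of 20 spots each, and the values are those of the brighter probe.

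The 3p arms of the 2 miR-181a stems are shown because the array separated them by tissue, with the bases in which they differ in capitals.
miR-181a-1-3p: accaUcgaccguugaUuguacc
miR-181a-2-3p: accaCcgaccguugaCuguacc
They differ by U5C and U16C, again counted from the 5′ end. Signals are background-subtracted spot intensities, scaled over the 19 arrays to a common 75th percentile, set to a floor of 4.54 where they fell below it, and taken to log2. On that scale miR-181a-1-3p ranged between 5.74 and 6.45 in the nucleus accumbens, with a median of 6.06, and stood at the floor on all 12 muscle arrays. It was at least 2.48-fold higher in the nucleus accumbens than in the soleus (limma, adjusted p = 2.95e-11) and exceeded the EDL at least 2.26-fold (adjusted p = 3.15e-11). It was tested because of the nucleus accumbens arrays alone, and the floored muscle arrays have no spread. These p-values therefore do not measure the spread between mice. A fold against a tissue below background is a lower bound, the mean of the bright tissue over, on each array of the dim one, the higher of the floor and the lowest signal well above background. Its second probe gave the same direction.

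**Figure D1:**
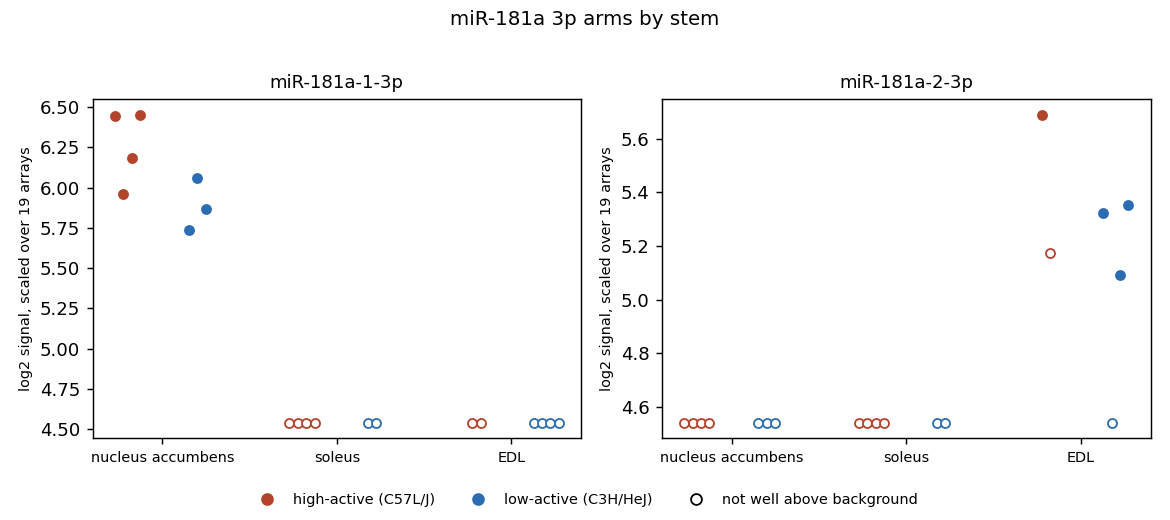
Log2 signal (y axis, scaled over 19 arrays, axis not starting at 0) of miR-181a-1-3p and miR-181a-2-3p on each array, by tissue, high-active left of low-active. Filled points were well above background and open points were not, and the row of open points at 4.54 is the floor. miR-181a-1-3p lay above the floor only in the nucleus accumbens and miR-181a-2-3p only in the EDL.

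miR-181a-2-3p had signals of 5.69 and 5.17 on the high-active EDL arrays, the second not well above background. On the low-active EDL arrays it had 5.35, 5.32 and 5.09, and on that of mouse 195, the dimmest EDL array, it was at the floor. It was at least 1.53-fold higher in the EDL than in the nucleus accumbens (adjusted p = 4.80e-05) and at least 1.32-fold higher than in the soleus (adjusted p = 7.98e-04). These p-values do not measure the spread between mice either. miR-181a-2-3p was tested because of the EDL arrays alone, and the arrays of the other tissues, all at the floor, have no spread. Only 1 of its 4 probes was above background anywhere, and 4 of the 6 arrays measured it. The call against the soleus was lost with normexp background correction, with no scaling, with the floor doubled and in low-active mice alone, and that against the nucleus accumbens was lost with the floor doubled.

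The question between tissues was how the members differ between brain and muscle and between the 2 muscles. All 4 5p arms were higher in the nucleus accumbens than in either muscle, with no overlap between the arrays. Between the muscles, miR-181a-5p and miR-181b-5p were lower in the soleus than in the EDL, with no overlap. miR-181c-5p and miR-181d-5p were higher in the soleus as means over both strains, but their arrays overlapped. In low-active mice alone neither of these 2 passed the test. Fits were made over the 19 arrays with 484 miRNAs tested, differences are means over both strains, and p is adjusted over all 484.

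miR-181a-5p had a log2 signal of 10.59 to 11.43 in the nucleus accumbens (median 10.94), 8.36 to 8.79 in the soleus (median 8.59) and 8.91 to 9.25 in the EDL (median 9.05). The 3 tissues did not overlap. It was 5.21-fold higher in the nucleus accumbens than in the soleus, a log2 difference of 2.38 (standard error 0.101, adjusted p = 2.35e-12), and 3.65-fold higher than in the EDL, a difference of 1.87 (standard error 0.101, adjusted p = 5.83e-11). In the soleus it was lower than in the EDL by a log2 difference of -0.51 (standard error 0.107, adjusted p = 0.00296), which is 1.43-fold.

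miR-181b-5p had 9.12 to 9.66 in the nucleus accumbens (median 9.37), 7.05 to 7.47 in the soleus (median 7.32) and 7.89 to 8.25 in the EDL (median 8.11), again with 3 separate ranges. Its log2 difference was 1.99 between the nucleus accumbens and soleus (standard error 0.0973, adjusted p = 1.56e-11) and 1.25 between the nucleus accumbens and EDL (standard error 0.0973, adjusted p = 7.08e-09). The soleus was 1.67-fold lower than the EDL, a log2 difference of -0.74 (standard error 0.103, adjusted p = 1.24e-04), and the difference was -0.74 within each strain.

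miR-181c-5p had 8.86 to 9.27 in the nucleus accumbens (median 9.15), 6.48 to 7.13 in the soleus (median 6.83) and 6.00 to 7.07 in the EDL (median 6.79). The muscles overlapped and the nucleus accumbens stood apart from both. It was 4.69-fold higher in the nucleus accumbens than in the soleus, a log2 difference of 2.23 (standard error 0.0905, adjusted p = 1.40e-12), and 6.09-fold higher than in the EDL, a difference of 2.61 (standard error 0.0905, adjusted p = 1.86e-13). Between soleus and EDL the difference was 0.38 (standard error 0.0960, adjusted p = 0.0121), 0.57 in high-active and 0.18 in low-active mice.

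miR-181d-5p had 8.12 to 8.83 in the nucleus accumbens (median 8.53), 6.02 to 6.86 in the soleus (median 6.22) and 5.54 to 6.80 in the EDL (median 6.48). As for miR-181c-5p, only the muscles overlapped. Its log2 difference was 2.05 between the nucleus accumbens and soleus (standard error 0.0895, adjusted p = 3.55e-12) and 2.41 between the nucleus accumbens and EDL (standard error 0.0895, adjusted p = 4.41e-13). Between soleus and EDL it was 0.36 (standard error 0.0950, adjusted p = 0.0133), 0.56 in high-active and 0.17 in low-active mice. The median over arrays was nevertheless lower in the soleus. Medians do not weigh the strains equally, as the soleus had 4 high-active and 2 low-active arrays and the EDL 2 and 4.

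**Figure D2:**
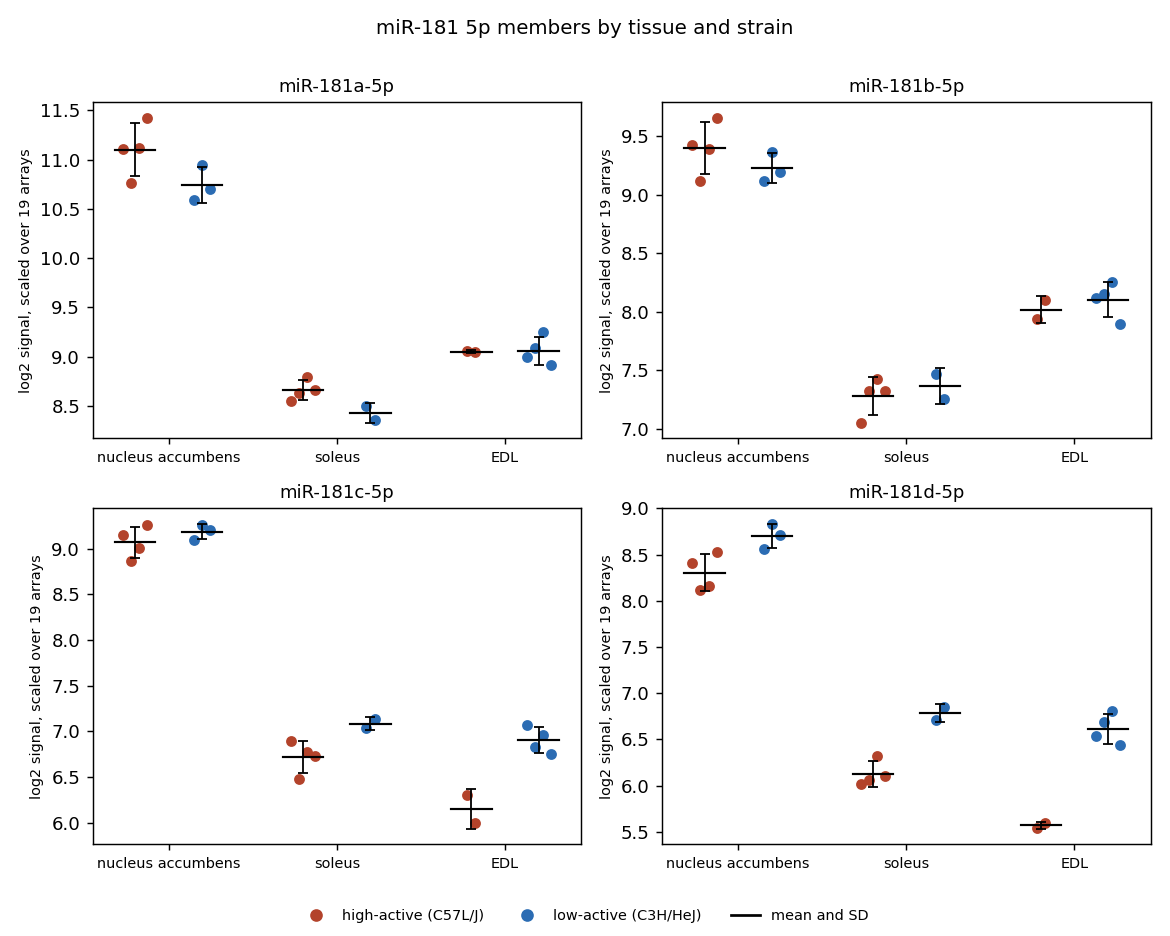
Log2 signal (y axis, scaled over 19 arrays, axes not starting at 0) of each 5p arm on each array, by tissue and with high-active left of low-active, with bars for the mean and SD of a group. All nucleus accumbens arrays lie above all muscle arrays for each arm. In the EDL the 2 high-active arrays lie below the 4 low-active ones for miR-181c-5p and miR-181d-5p.

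Of all 484 miRNAs, 47.3% were called higher and 31.6% lower in the nucleus accumbens than in the soleus, and 47.1% higher and 28.7% lower than in the EDL. Being higher in the nucleus accumbens was therefore common, and by size of the difference miR-181c-5p ranked 104 and 81 of 484 from the highest against soleus and EDL. miR-181a-5p ranked 95 and 111, miR-181d-5p ranked 114 and 92, and miR-181b-5p ranked 116 and 144. Between soleus and EDL 7.02% were called higher and 9.09% lower in the soleus. Of the 6 members measured on any array, 2 were called higher and 3 lower, and miR-181a-1-3p was at the floor in both muscles. miR-181a-2-3p was tested because of the EDL arrays alone, and miR-181c-5p and miR-181d-5p were chosen on values of these arrays. The member counts are therefore not set against the shares. The lower calls are miR-181a-5p, miR-181b-5p and miR-181a-2-3p, all of the chromosome 1 and 2 stems, and the higher calls are miR-181c-5p and miR-181d-5p, of the chromosome 8 stems.

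The soleus and EDL calls of miR-181c-5p and miR-181d-5p share their arrays with the strain values that chose them, and are not independent of those. Both were lost in low-active mice alone (adjusted p = 0.655 and 0.691), without the low-active soleus array of mouse 195 (0.0655 and 0.0818) or the low-active EDL array of mouse 195 (0.0678 and 0.0549), and with scaling over all probes (0.290 and 0.183), where the differences were 0.27 and 0.26. Both were also lost with normexp background correction, where the differences shrank to 0.16 and 0.14 (0.804 and 0.950). They were lost too with no scaling, where they were larger at 0.62 and 0.60 (0.122 and 0.108), and with the scanner's own miRNA signal, at 0.36 and 0.31 (0.0808 and 0.109). That of miR-181c-5p was lost with quantile normalization, at 0.33 (0.150). Without the high-active EDL array of mouse 225, miR-181d-5p was lost at 0.0598, and without that of mouse 227, miR-181c-5p was lost at 0.101. In these fits with 1 array left out the differences of the lost calls lay between 0.26 and 0.35. The call of miR-181b-5p was lost only when arrays were not scaled (0.180), and that of miR-181a-5p then (0.573) and in high-active mice alone (0.135).

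Tissues were checked by marker miRNAs. The log2 of the summed signals of 8 neuronal miRNAs, led by miR-128-3p and miR-124-3p, lay between 16.75 and 17.22 in the nucleus accumbens, 10.97 and 11.61 in the soleus and 10.13 and 11.09 in the EDL. That of 6 muscle miRNAs, led by miR-133b-3p and miR-133a-3p, lay between 8.88 and 11.18 in the nucleus accumbens, 18.85 and 19.28 in the soleus and 19.01 and 19.70 in the EDL. miR-124-3p was at the floor on all muscle arrays. The nucleus accumbens arrays differed widely in epithelial miRNAs. The log2 of their summed signal, scaled within the tissue, lay between 7.66 and 13.97 in high-active mice, against 7.13 to 12.15 in low-active mice. miR-200a-3p was well above background on 5 of the 7 and reached 13.10. The 3 miR-200 members were at the floor on all muscle arrays and were tested because of the nucleus accumbens arrays alone. Their calls are therefore not counted. The part of the epithelial signal in the tissue values was not tested, but for each 5p arm all 7 nucleus accumbens arrays lay above every muscle array. These are bulk tissues, in which fewer cells of a type and less RNA per cell cannot be told apart. With scaling over the probes common to all 19 arrays, the median difference over all miRNAs was 0.20 for both brain comparisons and 0 between the muscles. Scaling over all probes moved it to -0.12 and -0.08 and split the calls against the soleus into 191 higher and 204 lower, where the main scaling gave 229 and 153, and every 5p arm kept its higher call. In simulated data in which many miRNAs differed, unchanged miRNAs were also called and estimates shifted together, so the brain against muscle counts over all miRNAs depend on the scaling. The shift in simulated data does not bound the scaling error on these arrays, so the differences of the 5p arms were not set against it. Scaling over all probes made every brain against muscle difference of the 5p arms smaller, but all stayed positive.

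The question between strains was whether high-active mice differ from low-active mice in each tissue. In both muscles miR-181c-5p and miR-181d-5p were lower on every high-active array than on every low-active array, while miR-181a-5p and miR-181b-5p were not. For these values arrays were scaled within their tissue, and the differences are descriptions with no test. Of the members tested in each tissue none passed an adjusted p of 0.05, against 6.91% of 391 miRNAs in the nucleus accumbens, 1.17% of 342 in the soleus and 0.303% of 330 in the EDL. Because the members were chosen on this contrast, nothing is read from that.

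In the EDL, miR-181d-5p had log2 signals of 5.44 and 5.42 in high-active mice, against 6.45, 6.61, 6.27 and 6.63 in low-active mice. The groups did not overlap, with means of 5.43 ± 0.01 for high-active (SD, n = 2) and 6.49 ± 0.17 for low-active mice (SD, n = 4), and the level was 2.09-fold lower in high-active mice, a difference of -1.06 (standard error 0.197). miR-181c-5p had 6.20 and 5.82 in high-active mice, against 6.77, 6.77, 6.80 and 6.76 in low-active mice, a difference of -0.77 (standard error 0.194). The low-active arrays lay within a narrow band and both high-active arrays below it.

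In the soleus, miR-181d-5p had 5.85, 5.87, 6.02 and 6.07 in high-active mice, against 6.56 and 6.54 in low-active mice. The difference was -0.60 (standard error 0.0902), a 1.52-fold lower level. miR-181c-5p had 6.73, 6.29, 6.65 and 6.52 in high-active mice, against 6.88 and 6.82 in low-active mice, a difference of -0.31 (standard error 0.137). The gap between the closest arrays of the 2 strains was smaller for miR-181c-5p than for miR-181d-5p. The dimmer probe of miR-181c-5p, well above background on 6 of 6 soleus and 5 of 6 EDL arrays, gave -0.35 in the soleus and -0.90 in the EDL with no overlap. That of miR-181d-5p was well above background on only 4 of 6 arrays in each muscle and averaged 4.42 in high-active EDL, beside a floor of 4.41, so no difference is given for it.

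In the nucleus accumbens, miR-181d-5p had 8.15, 8.68, 8.40 and 8.35 in high-active mice, against 8.74, 8.97 and 8.55 in low-active mice. One high-active array lay inside the low-active range, and the difference was -0.36 (standard error 0.167). miR-181c-5p had 8.89, 9.42, 9.13 and 9.20 in high-active mice, against 9.24, 9.41 and 9.09 in low-active mice, and the difference of -0.08 (standard error 0.157) was smaller than the spread between mice. With scaling over all probes miR-181c-5p differed by 0.14 and miR-181d-5p by -0.14. Whether the strain differences differ between tissues was not tested.

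miR-181a-5p leaned the other way or differed little. In the nucleus accumbens the high-active mean was 11.19 ± 0.34 (SD, n = 4) and the low-active mean 10.80 ± 0.26 (SD, n = 3), a difference of 0.39 (standard error 0.215) with overlap. In the soleus it had 8.38, 8.45, 8.57 and 8.54 in high-active mice, against 8.34 and 8.04 in low-active mice, which did not overlap, a difference of 0.29 (standard error 0.114) that turned to -0.42 when arrays were not scaled. In the EDL the high-active mean was 8.91 ± 0.06 (SD, n = 2) and the low-active mean 8.93 ± 0.14 (SD, n = 4). The dimmer probe of miR-181a-5p, well above background on 6 of 6 soleus arrays, gave 0.32 in the soleus, but with overlap. miR-181b-5p differed by 0.20 (standard error 0.187) in the nucleus accumbens, -0.02 (standard error 0.155) in the soleus and -0.10 (standard error 0.186) in the EDL, with overlap in each. miR-181a-1-3p differed by 0.41 (standard error 0.186) in the nucleus accumbens, also with overlap, and by 0.10 with normexp background correction and 0.79 with no scaling.

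**Figure D3:**
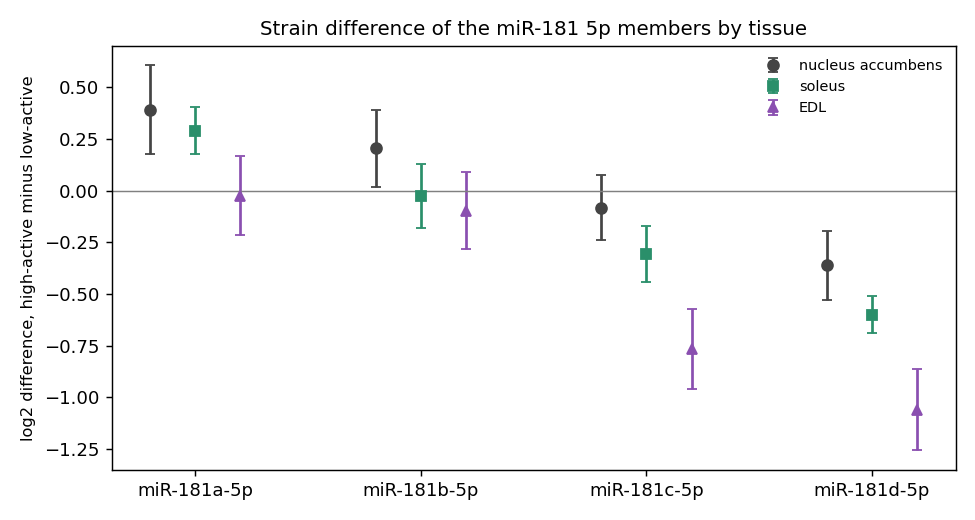
Log2 difference between high-active and low-active mice (y axis, positive where higher in high-active mice) of each 5p arm in each tissue, with bars for the standard error from limma. The 2 chromosome 8 arms lie below 0 in soleus and EDL, the lowest being -1.06 for miR-181d-5p in the EDL, and miR-181a-5p and miR-181b-5p lie within 0.39 of 0.

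Lower values without overlap were not rare over all miRNAs, at 14.6% in the nucleus accumbens, 12.3% in the soleus, 10.6% in the EDL, 5.11% (16 of 313) in both muscles and 2.33% in all 3 tissues, and higher values without overlap were found for 3.84%, 17.3% and 9.09% in the 3 tissues. Within slides the muscle differences of miR-181c-5p and miR-181d-5p were also negative. They are parts of the values that chose these arms, so nothing is read from their sign. For miR-181d-5p they were -0.47 and -0.62 in the soleus (slides 1 and 2) and -1.21 and -1.01 in the EDL (slides 1 and 3), and for miR-181c-5p -0.30 and -0.41 in the soleus and -0.94 and -0.57 in the EDL. In the soleus these set high-active mouse 225 against low-active mouse 195 (slide 1) and mice 224 and 227 against mouse 194 (slide 2). In the EDL they set mouse 227 against mouse 195 (slide 1) and mouse 225 against mouse 197 (slide 3). The slide left in each muscle held 1 strain. The soleus values depended on the processing. Scaling over all probes gave -0.056 for miR-181c-5p and -0.35 for miR-181d-5p, and normexp background correction gave 0.041 and -0.023 in the soleus and -0.45 and -0.54 in the EDL.

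Other measures moved with the strains in muscle, and their part in these values was not tested. The 75th percentile used for scaling was 588 to 1001 on the high-active soleus arrays, against 1206 and 1357 on the low-active ones. Of 5 epithelial miRNAs, 2 were measured in each muscle. The log2 of the summed signal of all 5, floored members included, was 6.91 to 7.42 in high-active soleus against 7.48 to 7.63 in low-active soleus. In the EDL it was 6.73 on both high-active arrays, where all 5 stood at the floor, against 7.23 to 8.37 in low-active mice. The brightest of them, miR-203-3p, averaged 5.13 ± 0.52 in high-active (SD, n = 4) and 6.30 ± 0.10 in low-active soleus (SD, n = 2), and in the EDL it was at the floor on both high-active arrays and averaged 6.25 ± 0.56 on the low-active ones (SD, n = 4), and the defining miR-200 members were not well above background in muscle. The sum over leukocyte miRNAs, 5 of 6 measured, was 10.92 to 11.12 in high-active soleus against 10.689 and 10.703 on the low-active arrays, and 10.88 to 10.94 in high-active EDL against 10.58 to 10.71 in low-active EDL. The sum of 4 vessel miRNAs was 13.44 to 13.57 in high-active EDL against 13.02 to 13.43 in low-active EDL, ranges that nearly touched, and it overlapped in the soleus. The sum over the miR-23a cluster, the neighbour on chromosome 8, was 14.86 to 15.18 in high-active soleus against 14.67 to 14.68 in low-active soleus, and it overlapped in the EDL. The muscle, neuronal and red cell sums overlapped in both muscles.

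A difference between 2 miRNAs on the same array does not move with the scaling of the array, so each chromosome 8 arm was set against its closest relative in sequence. It shows unequal change and says nothing of which miRNA is more abundant. By this measure miR-181c-5p relative to miR-181a-5p, and miR-181d-5p relative to miR-181b-5p, were lower on every high-active than on every low-active array in all 3 tissues, the nucleus accumbens included. This was not particular to pairs across the clusters. miR-181b-5p minus miR-181a-5p was also lower without overlap in the nucleus accumbens (by -0.19) and soleus (-0.32), and so was miR-181d-5p minus miR-181c-5p (-0.28 and -0.29), while both overlapped in the EDL. Of the other cross pairs, miR-181d-5p minus miR-181a-5p was lower without overlap in all 3 tissues and miR-181c-5p minus miR-181b-5p overlapped in the soleus.

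In the nucleus accumbens, miR-181d-5p minus miR-181b-5p had a high-active mean of -1.09 ± 0.11 (SD, n = 4) and a low-active mean of -0.52 ± 0.04 (SD, n = 3). In the soleus the high-active mean was -1.16 ± 0.10 (SD, n = 4) and the low-active mean -0.58 ± 0.25 (SD, n = 2). In the EDL the high-active mean was -2.45 ± 0.08 (SD, n = 2) and the low-active mean -1.49 ± 0.06 (SD, n = 4). High-active minus low-active was thus -0.57 in the nucleus accumbens, -0.58 in the soleus and -0.96 in the EDL. miR-181c-5p minus miR-181a-5p had a high-active mean of -2.03 ± 0.13 (SD, n = 4) and a low-active mean of -1.55 ± 0.11 (SD, n = 3) in the nucleus accumbens. In the soleus high-active mice averaged -1.94 ± 0.21 (SD, n = 4) and low-active mice -1.34 ± 0.17 (SD, n = 2), and in the EDL high-active mice averaged -2.90 ± 0.20 (SD, n = 2) and low-active mice -2.16 ± 0.16 (SD, n = 4). High-active minus low-active was -0.48 in the nucleus accumbens, -0.60 in the soleus and -0.74 in the EDL.

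**Figure D4:**
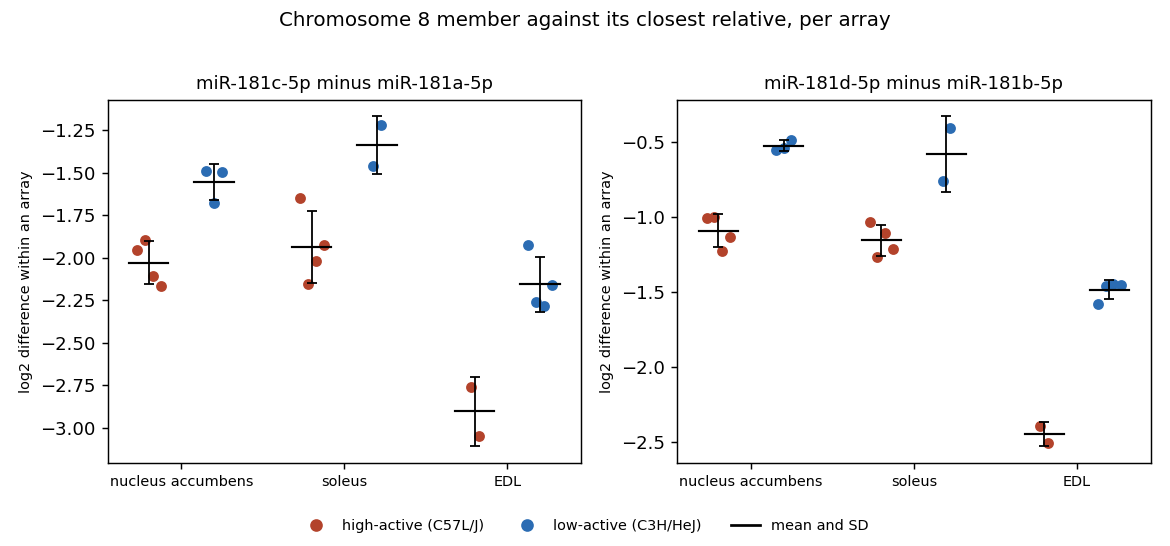
Log2 difference within an array (y axis) of miR-181c-5p minus miR-181a-5p and of miR-181d-5p minus miR-181b-5p, by tissue and with high-active left of low-active, with bars for the mean and SD. In each tissue the high-active points lie below the low-active points, and in both panels the 2 high-active EDL arrays lie lowest.

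Which miRNA of a pair differed cannot be read from the nucleus accumbens values, as it depended on the scaling. There miR-181a-5p, miR-181b-5p, miR-181c-5p and miR-181d-5p differed by 0.39, 0.20, -0.08 and -0.36 with the main scaling, by 0.61, 0.42, 0.14 and -0.14 with scaling over all probes, and by 0.78, 0.59, 0.30 and 0.022 with no scaling. Set against miR-181a-5p in the same way, 42.3%, 38.7% and 11.2% of all miRNAs were lower without overlap in the nucleus accumbens, soleus and EDL, and 4.67% (12 of 257) in all 3 tissues. Set against miR-181b-5p the shares were 25.6%, 6.74% and 10.3%, and 1.17% (3 of 257) in all 3. Those 3 were miR-181d-5p, miR-203-3p and miR-467b-5p, named after their values were seen. Both pairs kept a negative strain difference in each tissue under every alternative processing tried, with a spread given in the closing section. The values that chose miR-181c-5p and miR-181d-5p are part of these differences, so nothing is read from their sign.

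Between the tissues, miR-181d-5p minus miR-181b-5p ranged between -1.23 and -0.48 in the nucleus accumbens, -1.27 and -0.40 in the soleus and -2.51 and -1.45 in the EDL. The EDL did not overlap with either other tissue, whose ranges lay together. miR-181c-5p minus miR-181a-5p averaged -1.83 in the nucleus accumbens, -1.74 in the soleus and -2.41 in the EDL over all arrays, with overlap. These averages do not weigh the strains equally, and within each strain the EDL lay lowest without overlap. In high-active mice it had -3.05 to -2.76, against -2.15 to -1.65 in the soleus and -2.17 to -1.90 in the nucleus accumbens. Low-active mice had -2.28 to -1.93 in the EDL, -1.46 to -1.22 in the soleus and -1.68 to -1.49 in the nucleus accumbens.

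Over the 19 arrays the members paired within their sets. The Pearson correlation was 0.976 between miR-181a-5p and miR-181b-5p (Spearman 0.963) and 0.984 between miR-181c-5p and miR-181d-5p (Spearman 0.947), against 0.930, 0.900, 0.881 and 0.874 for the pairs a and c, a and d, b and c, and b and d. These are descriptions in which the arrays share tissues, and most of the correlation follows the tissue. After subtracting the 6 group means, miR-181a-5p and miR-181b-5p still varied together (0.914), whereas miR-181c-5p and miR-181d-5p did less (0.485), and miR-181d-5p correlated more with miR-181a-5p (0.821). Such correlation was not particular to the family. By the same measure miR-99a-5p reached 0.824 with miR-181a-5p, 0.870 with miR-181b-5p and 0.884 with miR-181d-5p. Among the 484 tested miRNAs and leaving out the family itself, those most like miR-181a-5p were miR-369-5p (0.979), miR-154-5p (0.977) and miR-127-3p (0.976). miR-127-3p (0.977), miR-434-5p (0.973) and miR-340-3p (0.972) were most like miR-181b-5p. miR-222-3p (0.981), miR-221-3p (0.977) and miR-335-5p (0.976) were most like miR-181c-5p, and miR-331-3p (0.961), miR-222-3p (0.956) and miR-341-3p (0.956) most like miR-181d-5p.

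The cluster of miR-23a, miR-27a and miR-24-2 begins 29.6 kb from the miR-181c stem on chromosome 8, and it went the other way between brain and muscle. Of its 6 mature miRNAs on the array 5 were tested, and all 5 were lower in the nucleus accumbens than in the soleus, with a median log2 difference of -1.63. Against the EDL 3 of 5 were lower, and 4 of 5 were higher in the soleus than in the EDL. Of all 484 miRNAs, 31.6% were called lower in the nucleus accumbens than in the soleus and 28.7% lower than in the EDL. The share called higher in the soleus than in the EDL was 7.02%. miR-27a-3p differed by -2.32 between the nucleus accumbens and soleus (standard error 0.163, adjusted p = 1.82e-09) and miR-23a-3p by -2.14 (standard error 0.107, adjusted p = 1.97e-11). miR-24-3p, by -1.25 (standard error 0.111, adjusted p = 3.47e-08), also comes from a stem on chromosome 13, and miR-24-2-5p differed by -1.63 (standard error 0.234, adjusted p = 1.11e-05). miR-23a-5p, counted among the 5, was at the floor on all nucleus accumbens arrays and was tested because of the muscle arrays alone. Its difference of -0.63 (standard error 0.217) therefore depends on the floor, and its call does not measure the spread between mice. miR-27a-5p was not tested. Between strains none of the cluster's members passed the test in any tissue. In the soleus miR-23a-3p differed by 0.42 (standard error 0.155, adjusted p = 0.266) and miR-27a-3p by -0.02 (standard error 0.150, adjusted p = 0.964). In the EDL miR-23a-3p differed by 0.09 (standard error 0.184, adjusted p = 0.934) and miR-27a-3p by 0.04 (standard error 0.358, adjusted p = 0.972).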

How the data were processed

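The Agilent scanner files hold spot intensities that the authors had background-subtracted with Feature Extraction 10.7.1.1 and that were not normalized between arrays, 1 Cy3 channel and 19 arrays on 3 slides. The deposited value table, in log2 units, came from GeneSpring, where the authors normalized each array. For each 5p arm it followed the sum of its probe signals with 1 shift per array and was centred to a median of 0 in a tissue, so it served as an alternative only. Here control and outlier spots (4.04% to 7.03% per array) were left out and spots averaged per probe. Each array was scaled by the 75th percentile of the probes well above background throughout the fit, floored at the median of the lowest such signal, and taken to log2. A miRNA took its brightest probe, and was tested if it was well above background on 3 or more nucleus accumbens arrays, 2 or more soleus or EDL arrays, or 2 or more of the 19 between tissues. limma 3.58.1 in R 4.3.3 (lmFit, eBayes, Benjamini-Hochberg, adjusted p under 0.05) compared strains within a tissue and tissues over 6 groups, tables being read with version 1.17.8 of data.table. The number of arrays limits the precision. The fits were tested on simulated data with known changes, first with many miRNAs changed and then, because that run failed, with few. With few changed, the changes were recovered and almost no unchanged miRNA was called. With many changed, the scaling itself moved, all strain and brain against muscle estimates shifted downward together, and many unchanged miRNAs were called. The scaling was kept as planned, with other scalings as alternatives.

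The members and lists were chosen with earlier results of these data known. Named were all miR-181 arms, the 3 miRNAs outside the family most like each 5p arm, the neighbouring cluster and the 2 brightest of a marker list. Further list members were named where a sum did not show their values. Mouse numbers in the labels link tissues of an animal, 8 mice in all, and served as a block between tissues (correlation 0.0934 as a random block). Mean spot signals were not used here, so normexp correction (offset 50) was run on median spot signals.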

Additional observations from a re-analysis of the deposited data

Results flagged for a closer look

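Of 20 sets of member values in groups of 4 arrays, 1 was set apart by a single array. miR-181d-5p minus miR-181b-5p was -1.58 on the low-active EDL array of mouse 194, against -1.46 to -1.45 on the other low-active EDL arrays. The gap to the nearest array was 0.904 of the group's range, above Dixon's critical value for 4 samples. Chance flags about 1 in 20 such groups. The array lay on the side of the high-active EDL arrays, which stood at -2.51 and -2.39, and remained well above them.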

How the results depend on the processing

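No paired analysis was possible because each mouse gave 1 array per tissue, as far as strains are concerned. Between tissues, the mouse as a replicate block changed no member's call, with 5, 6 and 5 members past the test for the nucleus accumbens against soleus, the nucleus accumbens against EDL and the soleus against EDL, as without it. With the fixed replicate block the soleus and EDL values were -0.44 for miR-181a-5p (adjusted p = 0.0267), -0.68 for miR-181b-5p (0.00363), 0.40 for miR-181c-5p (0.0290) and 0.41 for miR-181d-5p (0.0214). The calls between brain and muscle of the 4 5p arms held under every alternative and without any single array. The number of arrays, 2 in some groups, and signals close to background for miR-181d-5p and the 3p arms limit the rest. When many miRNAs were changed in simulated data, estimates shifted together and unchanged miRNAs were called. The sizes of brain against muscle differences therefore depend on the scaling. Apart from that, the cause of each shift below was not tested.

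Between soleus and EDL, members past the test numbered 3 with scaling over all probes, 3 with the scanner's own miRNA signal, 2 with normexp correction, 2 in low-active mice alone and 0 with no scaling, where the main count was 5, and 3 to 5 when 1 array was left out. In high-active minus low-active differences, scaling over all probes gave -0.056 (soleus), -0.57 (EDL) and 0.14 (nucleus accumbens) for miR-181c-5p and -0.35, -0.86 and -0.14 for miR-181d-5p. For miR-181a-5p it gave 0.54 (soleus) and 0.18 (EDL), and for miR-181b-5p 0.23 and 0.10. No scaling gave 0.78 in the nucleus accumbens and -0.42 in the soleus for miR-181a-5p and 0.59 and -0.74 for miR-181b-5p. It gave -1.02 in the soleus and 0.30 in the nucleus accumbens for miR-181c-5p, and -1.31 and 0.022 for miR-181d-5p. Normexp gave 0.18 for miR-181b-5p in the soleus, and 0.041 (soleus) and -0.45 (EDL) for miR-181c-5p, -0.023 and -0.54 for miR-181d-5p, -0.27 and -0.42 for miR-181c-5p minus miR-181a-5p, and -0.20 and -0.43 for miR-181d-5p minus miR-181b-5p. Quantile normalization gave -0.57 and -0.84 for miR-181c-5p and miR-181d-5p in the EDL, -0.32 in the nucleus accumbens and -0.54 in the EDL for miR-181c-5p minus miR-181a-5p, and -0.46 and -0.71 for miR-181d-5p minus miR-181b-5p. The scanner software's signal gave -0.97 for miR-181c-5p in the EDL and, for miR-181d-5p, -0.74 in the soleus and -1.26 in the EDL, with -0.17 for miR-181a-5p and -0.26 for miR-181b-5p in the EDL. The sum of probe signals gave -0.47 for miR-181d-5p and 0.43 for miR-181a-5p in the soleus. Within slide 1, miR-181a-5p gave 0.50 in the soleus and -0.16 in the EDL, miR-181b-5p gave 0.23 in the soleus, miR-181d-5p gave -0.47 in the soleus and -1.21 in the EDL, miR-181c-5p gave -0.94 in the EDL, miR-181c-5p minus miR-181a-5p gave -0.80 in the soleus and miR-181d-5p minus miR-181b-5p gave -1.04 in the EDL. Within slide 2, miR-181d-5p gave -0.62 in the nucleus accumbens and miR-181d-5p minus miR-181b-5p gave -0.69 there, and within slide 3 miR-181c-5p gave -0.57 in the EDL. Leaving out 1 array gave 0.14 to 0.44 for miR-181a-5p and -0.21 to 0.16 for miR-181b-5p in the soleus, -0.16 to 0.017 for miR-181a-5p and -0.23 to -0.062 for miR-181b-5p in the EDL, -0.70 to -0.57 for miR-181d-5p in the soleus, -0.97 to -0.61 for miR-181c-5p in the EDL and -0.75 to -0.40 for miR-181d-5p minus miR-181b-5p in the soleus.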
